A study of Mus musculus with 167 samples.

Results

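The comparison described here sets liver microRNAs of 8 Q80 mice against those of 8 Q20 mice, both aged 6 months. Members were chosen by their labels, with earlier results of these data known. They are the heterozygous (HET) Q80 and Q20 samples of that age, and make up 16 of the 167 samples of the series. Every mouse carried 1 wild-type Htt allele and 1 knock-in allele holding human HTT exon 1 sequence, with nominally 80 CAG repeats (Htt tm1.1Pfs) or 20 CAG repeats (Htt tm2Mem), under the strain label C57BL/6. Q20 is the short-repeat control of the series, so the control livers carry a knock-in allele too, and the lines were derived separately. Each group held 4 females (F1 to F4) and 4 males (M1 to M4) and 1 library per mouse, and same-sex littermates did not enter the same group. Wild-type livers of 6 months were not used, because their library names follow another numbering.

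MicroRNAs are cut from hairpin precursors, and the mature strand pairs with messenger RNAs mainly through bases 2 to 8, the seed, to lower their translation and stability. Several precursors at different places in the genome can give the same mature sequence, and mature microRNAs with the same seed form a family with overlapping targets. In the liver, miR-122, miR-192 and miR-148a are abundant in hepatocytes, let-7 is a general brake on growth and on Lin28, Myc and Ras genes, and the miR-15 and miR-16 family lowers cyclins and Bcl2.

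The mature sequences that the results turn on are shown 5′ to 3′ with the seed in capitals, so that precursors of 1 family and precursors of 1 identical product can be told apart (RefSeq, GRCm38.p6). The first 4 are let-7 family members, the next pair are of the miR-15 and miR-16 family, and miR-125a and miR-351 share another seed.
let-7a-5p: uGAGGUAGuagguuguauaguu
let-7f-5p: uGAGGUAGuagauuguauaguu
let-7g-5p: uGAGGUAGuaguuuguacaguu
miR-98-5p: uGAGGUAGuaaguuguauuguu
miR-16-5p: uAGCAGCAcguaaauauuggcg
miR-195a-5p: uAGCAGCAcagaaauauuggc
miR-125a-5p: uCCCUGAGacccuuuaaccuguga
miR-351-5p: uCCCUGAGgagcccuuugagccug
miR-27a-3p: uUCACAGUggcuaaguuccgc
miR-99b-5p: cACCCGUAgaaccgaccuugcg
Counted from the 5′ end, let-7a-5p and let-7f-5p differ only by G12A, let-7a-5p and miR-98-5p by G11A and A19U, and miR-16-5p and miR-195a-5p by G10A and U11G over their first 21 bases. miR-125a-5p and miR-351-5p share the seed but differ at 14 of 24 positions.

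The same let-7a-5p is cut from Mirlet7a-1 and Mirlet7a-2, and the same miR-16-5p from Mir16-1 and Mir16-2. A read of such a product cannot be assigned to 1 precursor, whereas the opposite arms of the copies differ in sequence. For the summed counts below, each listed mature sequence of either arm was searched in every precursor with a sequence available. Those counts join the let-7a and let-7c precursors in 1 unit, and Mir16-1 with Mir16-2 alone. Which sequences joined them is not given here. The opposite arms of Mirlet7a-2, Mir16-1 and Mir16-2 are printed because the division of counts between copies is a main result below.
let-7a-2-3p: cUGUACAGccuccuagcuuuc
miR-16-1-3p: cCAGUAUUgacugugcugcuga
miR-16-2-3p: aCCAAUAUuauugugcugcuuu

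Total counts per library ranged from 3.37 M to 7.61 M (M for mega, 1e6) in Q80 (mean 6.04 ± 1.58, SD, n = 8) and from 3.42 M to 5.50 M in Q20 (4.38 ± 0.626, SD, n = 8), a difference with an exact two-sided permutation p of 0.0196. Among the LB libraries alone, 4 against 7, the same exact test gave p = 0.324. The names of the libraries carry an index type, LB or V, and a lane, whose meaning beyond this is not given in the sources used here. Q80 F1, F2 and M1 were LB libraries of lane L3, M4 was an LB library of lane L4, and F3, F4, M2 and M3 were V libraries. In Q20, F4 was a V library, and the other 7 were LB libraries of lanes L5 to L8. Within LB, lane and genotype cannot be told apart. The 6 precursors with the most counts took 59.6% to 64.5% of all counts in a library. The hepatocyte microRNAs that define the labelled tissue were present in every library, summing to 334992.5 to 366123.7 CPM (counts scaled to a library total of 1e6) in Q80 and 313200 to 367761.9 CPM in Q20.

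Of 309 precursors tested, 22 (7.12%) passed an adjusted p of 0.05 between Q80 and Q20, 13 higher (4.21%) and 9 lower (2.91%) in Q80. Unless another tool is named, tests across precursors are edgeR quasi-likelihood tests with Benjamini-Hochberg adjustment, and a call means an adjusted p under 0.05. The comparison of Q80 with Q20 given here had sex and index type as terms. In the test of V against LB libraries within Q80, index type was the tested term. Without adjustment, 65 precursors had p under 0.05. Most calls were close to the threshold: 3 had an adjusted p under 0.01 (Gm24111, Mir351 and Mirlet7a-2) and the other 19 had one from 0.04 upwards. The changes were small, with 14 of the 22 below 1.5-fold. Counts were fractional in all 16 libraries for 11 of the 22 calls and for 86 of the 309 precursors tested. In 3 precursors of 309 (0.971%) the ranges of the groups did not overlap, namely Gm24111 and Mirlet7a-2, higher in Q80 (0.647%), and Mir24-2, lower in Q80 (0.324%). Mir24-2, named after its values were seen, had 494 to 628 CPM in Q80 and 648 to 805 CPM in Q20 but missed the call (log2 change −0.26, adjusted p = 0.0507).

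**Figure D1:**
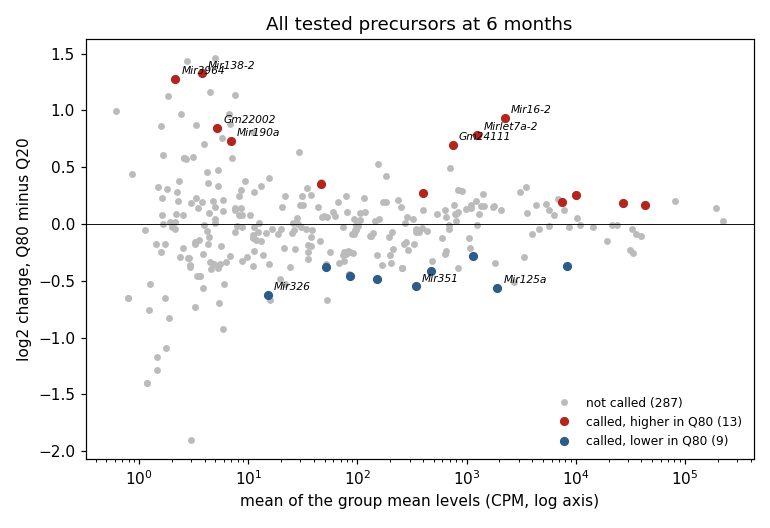
Each of the 309 tested precursors is a point, with its mean level in CPM on a log axis and its log2 change (Q80 minus Q20) on the linear y axis. Red points are the 13 calls higher in Q80, blue points the 9 calls lower, and grey points the 287 without a call, which spread widest below 10 CPM.

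The list of let-7 precursors, which includes Gm24111 for its place opposite a let-7f copy, held 5 of the 13 higher calls (4.21% of all precursors tested were called higher). The list was set with earlier results of these data known. All members but Mir98 had fractional counts in all 16 libraries, and some give the same mature product. Its members are thus not independent, and the count of calls is descriptive only. Mirlet7a-2, Gm24111, Mir98, Mirlet7g and Mirlet7f-2 rose, none of the 11 tested members of the list was called lower, and all 11 had a positive log2 change (median 0.18, against −0.01 over all precursors tested). All 11 were also positive with RLE size factors, with DESeq2 and among LB libraries alone, which are fits of the same libraries or of part of them. Among those LB libraries Gm24111 and Mirlet7a-2 were still called, and Mir98, Mirlet7g and Mirlet7f-2 were not (adjusted p = 0.212, 0.195 and 0.133). By seed alone, without Gm24111 and with Mir1961, 4 of 11 tested precursors were called higher, 10 were positive and 1 was negative. The negative one was Mir1961, named after its values were seen, with a log2 change of −0.83 and no call. The summed level of the let-7 list overlapped between groups: 47629.2, 58174.6 and 67253.1 CPM (lowest, median and highest) in Q80 and 50206.8, 54298.4 and 58808.2 CPM in Q20. The 3 Q80 libraries of lane L3 and Q80 F3 were above every Q20 library, and Q80 M2 was below every one.

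Mirlet7a-2 (chr9:41536716-41536811 of mm10, in an intron of the long noncoding RNA 3110039I08Rik) had 1139.2, 1500.0 and 2499.2 CPM in Q80 (lowest, median, highest) and 714.2, 903.9 and 1071.7 CPM in Q20. Every Q80 library was above every Q20 library, and the highest Q20 value belonged to its single V library. The fitted change was 1.72-fold, or 0.78 ± 0.14 on the log2 scale (SE), with an adjusted p of 0.00473. The other let-7a precursor, Mirlet7a-1, was not called, at 0.13 on the log2 scale.

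Gm24111 had the smallest adjusted p of the comparison. It is annotated as a microRNA gene at chr13:48537825-48537921, on the strand opposite to the copy of let-7f made at that place, and its counts were fractional in all 16 libraries. Its levels were 734.3, 912.0 and 1080.5 CPM in Q80 and 454.5, 586.2 and 694.1 CPM in Q20. The 8 Q80 libraries, LB and V alike, lay above the Q20 range, from M4 at the lowest to F3 at the highest. Gm24111 rose 1.62-fold, a log2 change of 0.70 ± 0.081 (SE; adjusted p = 9.87e-05). Mirlet7f-1, the copy facing it, was not analysed here.

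The other let-7 calls were smaller. Mir98 and Mirlet7f-2 lie close together in introns of Huwe1 on chromosome X, and rose by 0.27 ± 0.078 and 0.19 ± 0.051 on the log2 scale (SE; adjusted p = 0.0496 and 0.0449). Mirlet7g, in an intron of Wdr82, rose by 0.20 ± 0.057 (adjusted p = 0.0496). Mirlet7f-2 had 27926.7 ± 3401.6 CPM in Q80 against 26361.4 ± 1475.4 CPM in Q20 (SD, n = 8 each), with a wide overlap.

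**Figure D2:**
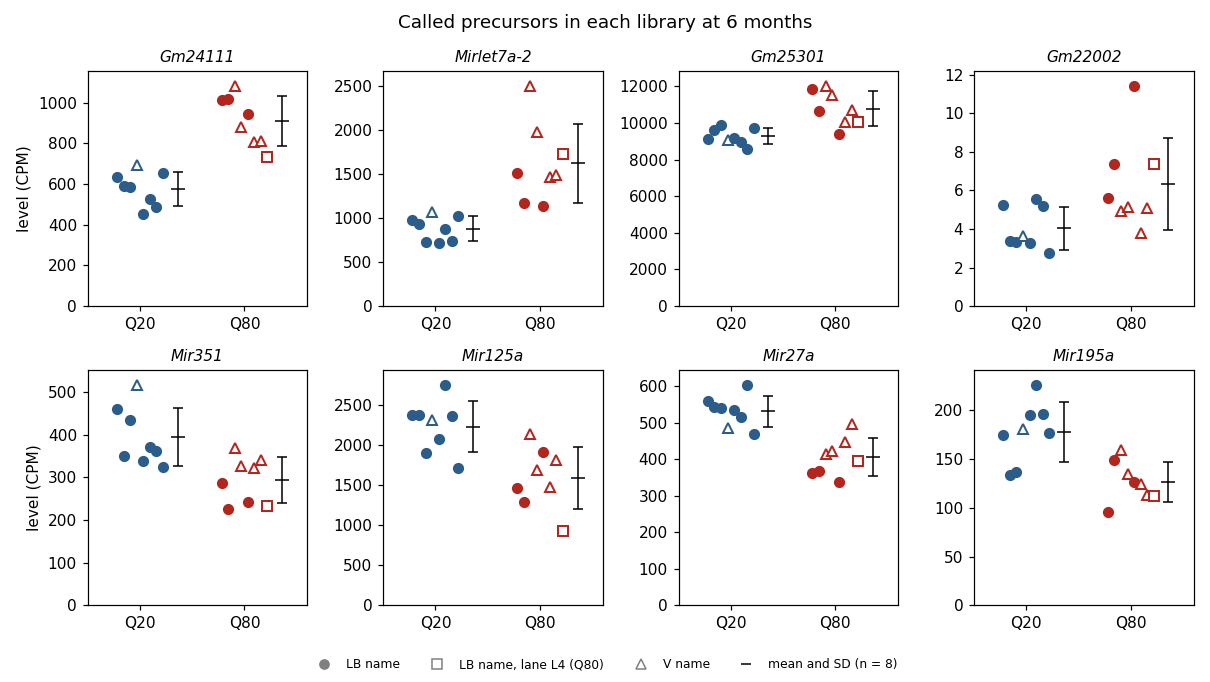
The level in CPM of 8 called precursors is plotted for every library, Q20 in blue and Q80 in red. Filled circles are LB libraries, the open square is the Q80 library of lane L4, triangles are V libraries, and the bar is the mean ± SD (n = 8). Gm24111 and Mirlet7a-2 show no overlap between groups, while the other 6 overlap.

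In the miR-15, miR-16 and miR-195 family 1 member rose and 2 fell among 6 tested (median log2 change −0.10), where 4.21% of all precursors tested were called higher and 2.91% lower. Mir16-2 (chr3:69009902-69009996, in an intron of Smc4) rose by 0.93 ± 0.23 (SE; adjusted p = 0.0405). Mir16-1 (chr14:61631880-61631972, in an exon of the noncoding RNA Dleu2) had a log2 change of −0.37 ± 0.093 (adjusted p = 0.0405). Both give the same miR-16-5p printed above, so the pair moved in opposite directions with the same mature product.

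Mir16-2 was spread over a wide range in Q80, at 1158.4, 3416.8 and 5440.1 CPM, and over a narrow one in Q20, at 1056.5, 1201.9 and 1372.4 CPM. Its 3 lowest Q80 libraries were those of lane L3, close to the Q20 range, and the 4 V libraries and M4 of lane L4 had 3336.8 CPM or more. Mir16-1 had 5050.3, 6513.7 and 9733.0 CPM in Q80 and 9134.7, 9417.9 and 11442.6 CPM in Q20. The Q80 libraries high in Mir16-2 were the low ones in Mir16-1.

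The share of Mir16-2 in the sum of both precursors made the split plain. It was 10.2% to 12.1% in Q20, including 11.4% in the Q20 V library, and 12.6% to 15.1% in the 3 Q80 libraries of lane L3. It was 37.2% in Q80 M4 and 40.9% to 46.5% in the 4 Q80 V libraries. The sum itself changed little, at 8547.1, 10183.8 and 11764.2 CPM in Q80 and 10279.0, 10672.6 and 12741.3 CPM in Q20. With both precursors added together before the test, the log2 change was −0.11 ± 0.071 (SE; adjusted p = 0.391).

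The let-7a copies were divided in the same libraries. Mirlet7a-2 made up 8.05% to 12.3% of the sum of Mirlet7a-1 and Mirlet7a-2 in Q20 and 11.2% to 12.9% in the Q80 libraries of lane L3. In Q80 M4 the share was 21.2%, and in the Q80 V libraries it was 19% to 22.7%. The sum was 7012.5, 9643.7 and 11694.9 CPM in Q80 and 8054.9, 8807.4 and 9645.0 CPM in Q20, with overlap. The 5 Q80 libraries with a high share were the same for miR-16 and let-7a. The Q20 V library was at 12.3%, the top of its group. The part of lane and of index type in these shares was not tested.

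**Figure D3:**
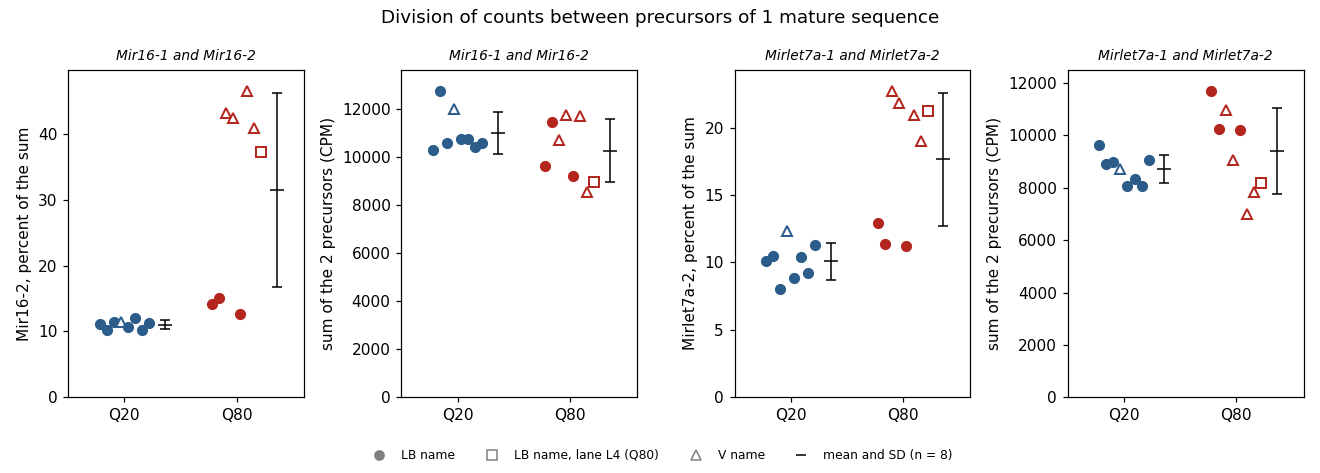
For the Mir16 and let-7a pairs, the share of the second copy (percent of the sum) and the sum of both copies (CPM) are plotted for every library, with mean ± SD (n = 8). The 4 Q80 V libraries (triangles) and the Q80 library of lane L4 (square) are apart from the rest in the shares, while the sums overlap between groups.

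Because reads of 1 mature product cannot be assigned to 1 precursor, the counts were also summed over precursors that hold the same mature sequence on either strand. Precursors that overlap each other in the genome, on either strand, were joined as well. The alternative was chosen after the data were seen. Of 277 summed units, 8 (2.89%) were called, 3 higher (1.08%) and 5 lower (1.81%), and 61 had an unadjusted p under 0.05. The lower calls were Mir351, Mir27a, Mir195a, Mir339 and Mir125a, and the higher calls Mir3964, Gm25301 and the sum of Mir138-1 and Mir138-2. No let-7 unit was called: the sum of Gm24111 and Mirlet7f-2 had a log2 change of 0.19 (adjusted p = 0.0506), and that of the let-7a and let-7c precursors 0.20 (adjusted p = 0.0608).

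Mir195a, the remaining call of the miR-16 seed, is an intergenic precursor (chr11:70235042-70235135) of a microRNA that lowers cell-cycle genes. Its levels were 95.5, 125.5 and 158.8 CPM in Q80 and 133.6, 178.8 and 225.5 CPM in Q20. All 8 Q80 libraries were below the Q20 median, with overlap between the Q80 high end and the Q20 low end. Mir195a fell, with a log2 change of −0.49 ± 0.12 (SE; adjusted p = 0.0405). Mir497b, annotated on the opposite strand beside it at chr11:70234692-70234816, had a log2 change of −0.46 (adjusted p = 0.0496). The family members without a call were Mir15a (−0.05), Mir15b (−0.09) and Mir322 (−0.12).

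Mir351 and Mir125a, whose products share the seed of miR-125, fell. Mir351 belongs to the miR-322 to miR-351 cluster of chromosome X, known from muscle differentiation, and lies at chrX:53053255-53053353. Its levels were 225.7, 303.7 and 369.6 CPM in Q80 and 325.3, 366.1 and 515.7 CPM in Q20. The 4 Q80 LB libraries were all below the Q20 range, at 225.7 to 286.5 CPM, and the 4 Q80 V libraries, at 320.9 to 369.6 CPM, overlapped it. Mir351 changed 0.684-fold, or −0.55 ± 0.087 on the log2 scale (SE), with an adjusted p of 0.00232. Of the 6 tested members of its cluster Mir351 was the only call (2.91% of all precursors tested were called lower). The others had log2 changes from −0.12 to 0.08.

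Mir125a (chr17:17830812-17830879, in an exon of Spaca6) gives a microRNA best known for controlling blood cell growth. Its levels were 926.1, 1591.3 and 2137.4 CPM in Q80 and 1714.5, 2339.9 and 2751.0 CPM in Q20. All 8 Q80 libraries were below the Q20 median, and Q80 M4 was the lowest of the 16. The log2 change was −0.56 ± 0.15 (SE; adjusted p = 0.0405). Mir99b, its neighbour at chr17:17830188-17830257, whose family lowers Mtor, had a log2 change of −0.28 (adjusted p = 0.0436). The remaining precursors with the miR-125 seed, Mir125b-1 and Mir125b-2, were not called, with log2 changes of −0.25 and −0.24.

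Mir27a (chr8:84208672-84208758) lies in 1 cluster with Mir23a and Mir24-2, and its product acts on lipid metabolism and angiogenesis. The levels of Mir27a were 338.4, 404.6 and 496.8 CPM in Q80 and 468.7, 538.4 and 601.8 CPM in Q20. Every Q80 library was below the Q20 median, and only Q80 M3 reached into the Q20 range. This was a log2 change of −0.41 ± 0.096 (SE; adjusted p = 0.0405). Its neighbours Mir24-2 (−0.26, adjusted p = 0.0507) and Mir23a (−0.23, adjusted p = 0.0887) were not called. In the second cluster of these families, Mir27b had a log2 change of −0.15 and Mir23b of 0.03, and neither was called. Over the 5 tested members of both clusters the median was −0.23.

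**Figure D4:**
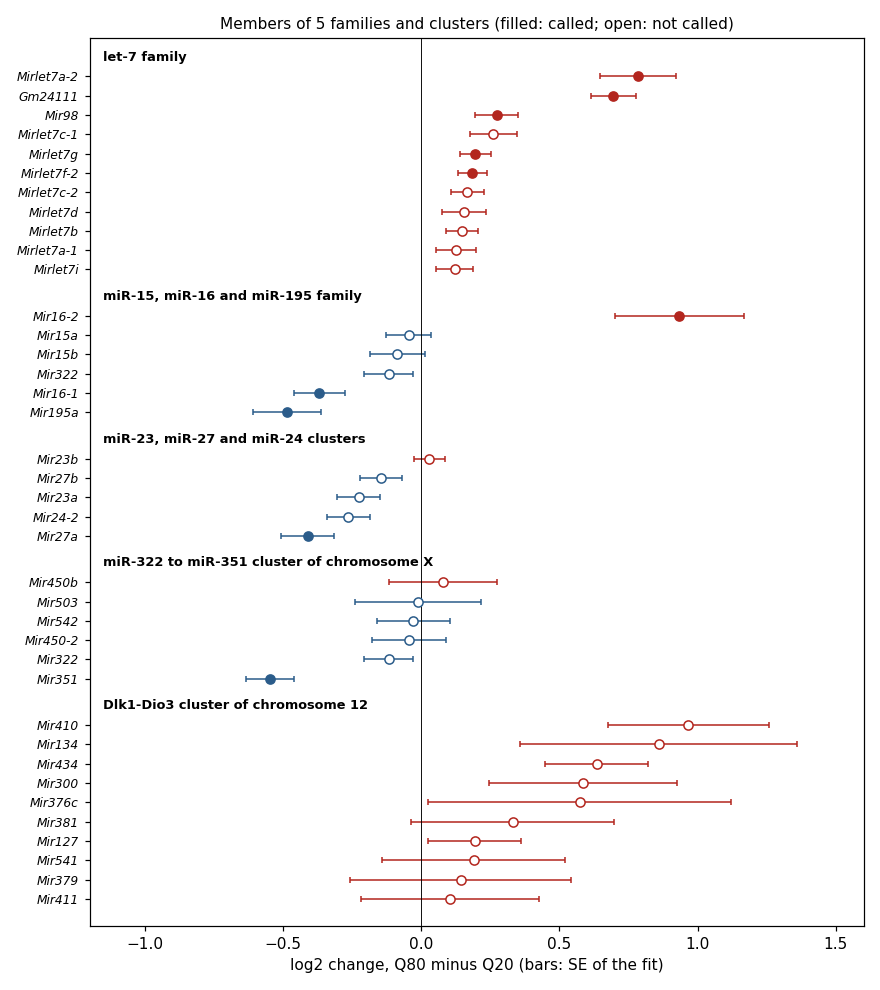
The log2 change (Q80 minus Q20, x axis, with the SE of the fit as bars) is drawn for the tested members of 5 families and clusters, filled where called. All 11 let-7 members are right of zero with 5 filled, Mir16-2 stands apart from the 5 other members of its family, and the 10 Dlk1-Dio3 members are right of zero with none filled.

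Of the other higher calls, Gm25301 is annotated in an intron of Ppargc1b, a coactivator of mitochondrial genes, on the opposite strand. Its counts were fractional in all 16 libraries, so its reads may be shared with another precursor. The levels of Gm25301 were 9370.6, 10665.8 and 12005.6 CPM in Q80 and 8582.9, 9153.0 and 9908.0 CPM in Q20. Every Q80 library was above the Q20 median. The log2 change was 0.25 ± 0.061 (SE; adjusted p = 0.0405). Mir30a, from a family known to lower autophagy genes, rose by 0.16 (adjusted p = 0.0450), the only call among 6 miR-30 precursors tested. Over all precursors tested 4.21% were called higher.

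The largest log2 changes belonged to precursors with few counts. Mir3964 had 0.96, 3.09 and 7.63 CPM in Q80 and 0.25, 0.795 and 2.00 CPM in Q20, with a log2 change of 1.28 ± 0.31 (SE; adjusted p = 0.0405). In both groups V libraries were the high ones: the 4 Q80 V libraries had 4.12 to 7.63 CPM, the 4 Q80 LB libraries 0.96 to 2.07 CPM, and the highest Q20 value was that of its V library. Gm22002 had 3.81, 5.38 and 11.4 CPM in Q80 and 2.73, 3.5 and 5.57 CPM in Q20 (log2 change 0.85 ± 0.22, adjusted p = 0.0405). Gm22002 resembles a repeat, shares sequence with many other annotated precursors, and its sum with them was not called (adjusted p = 0.200). Mir138-2 and Mir190a rose by 1.32 and 0.73 on the log2 scale (adjusted p = 0.0436 and 0.0496). These 4 precursors were below 10 CPM on average in both groups, and Mir378b, the last of the higher calls, rose by 0.35 (adjusted p = 0.0436).

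Among the lower calls not yet described, Mir339 had 32.4, 44.4 and 66.7 CPM in Q80 and 40.0, 56.1 and 69.7 CPM in Q20. Its ranges overlapped almost wholly, and 6 of 8 Q80 libraries were below the Q20 median. The log2 change was −0.38 ± 0.098 (SE; adjusted p = 0.0405), and among V libraries alone, with 1 Q20 library, the value was 0.06 (adjusted p = 0.975). Mir326, in an intron of Arrb1, had a log2 change of −0.62 (adjusted p = 0.0449).

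Among the 6 precursors with the most counts, Mir30a was the only call, where 7.12% of all precursors tested were called. Mir192 had 221901.6 ± 11085 CPM in Q80 and 225925.2 ± 18781.2 CPM in Q20 (SD, n = 8 each; adjusted p = 0.813). The log2 changes of the others were 0.14 for Mir22 (adjusted p = 0.0653), 0.20 for Mir148a (adjusted p = 0.0535), −0.11 for Mir26a-2 and −0.09 for Mir143. Mir148a, which acts on cholesterol uptake, was called among LB libraries alone (adjusted p = 0.0287).

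None of the marker lists of liver cell types held a call, where 7.12% of all precursors tested were called. Lists this short can hold no call at that share. Of 10 hepatocyte precursors 8 had a positive and 2 a negative log2 change (median 0.18). Of 6 biliary precursors 2 were positive (median −0.31), with a summed level of 796.4 to 1188.7 CPM in Q80 and 897.1 to 1397.8 CPM in Q20. Of 8 leukocyte precursors 2 were positive (median −0.14), summing to 3090.2 to 6208.6 CPM in Q80 and 3426.5 to 7410.4 CPM in Q20. The 3 erythroid precursors were all positive (median 0.43), and their sums, 5298.7 to 11439.5 CPM in Q80 and 5489.3 to 12071.5 CPM in Q20, overlapped almost wholly. Stellate cell, fibroblast and smooth muscle precursors had a median of −0.09 over 7, and endothelial ones of −0.01 over 3. In bulk liver, fewer cells of a type and less RNA per cell cannot be told apart.

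Precursors of tissues outside the liver had few counts. Over all precursors tested 7.12% were called, so the short lists that follow can hold no call at that share. The count minimum was passed by 1 of 9 muscle and 1 of 4 pancreatic precursors, with no call. Of 9 neuronal precursors 6 were tested, 4 positive and 2 negative, with no call. A list of microRNAs known from brain and Huntington disease gave 5 positive and 4 negative log2 changes over 9 tested and no call. The lists of lipid and glucose metabolism (11 tested), the miR-17 to miR-92 clusters (12), the miR-29 (4), miR-26 (3), miR-181 (6) and miR-34 (2) families also held no call, nor did the 1 tested precursor of the Sfmbt2 cluster. Of 13 precursors listed for lipid and glucose metabolism 12 were in the counts, and Mir378 was not found. Mir378b, called higher above, was not on that list.

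The imprinted Dlk1-Dio3 cluster of chromosome 12, expressed mainly in fetal tissues, had 29 precursors in the counts and 10 tested. All 10 had a positive log2 change (median 0.45) and none was called, where 7.12% of all precursors tested were called. The smallest adjusted p was 0.0507, for Mir434 and Mir410, named after their values were seen. The summed level was 203.1, 335.6 and 907.3 CPM in Q80 and 210.4, 335.0 and 442.2 CPM in Q20, with equal medians. Q80 M3, M4 and M2 were the high libraries, at 907.3, 677.9 and 543.4 CPM, and the other 5 lay within or just below the Q20 range. With the Q80 libraries of lane L3 alone, 5 of 10 members were positive (median −0.06).

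Index type was compared within the Q80 livers, where it was balanced over sex. No precursor of 309 was called between V and LB by edgeR, 26 had an unadjusted p under 0.05, and DESeq2 called 2. The smallest adjusted p belonged to Mir3964, with a log2 difference (V minus LB) of 1.77, Gm25960 with −2.11 (both adjusted p = 0.253) and Mir874 with 0.52 (adjusted p = 0.383). Among the 22 calls between genotypes, 9 were past an unadjusted p of 0.05 for index type. Mir16-2 was at 1.27 and Mir351 at 0.42 (V minus LB, adjusted p = 0.390 each).

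Within the LB libraries, 4 Q80 against 7 Q20, all 22 calls kept their sign, and 4 of them passed the adjusted threshold among 6 calls. These libraries are among those that gave the calls, so a kept sign was favoured in advance and is not separate evidence. No LB lane held both genotypes, so with lane in place of index type the genotype term rested on the V libraries, 4 Q80 against 1 Q20, with the lone Q20 library assumed to vary like the others. That fit gave 1 call, Mir16-2 (1.91, adjusted p = 0.0118). The V libraries fitted alone, with the same single Q20 library, gave no call by edgeR, and 21 had an unadjusted p under 0.05. The 3 Q80 libraries of lane L3 against the 7 Q20 LB libraries, a comparison added after the data were seen, gave 2 calls, Gm24111 (0.81, adjusted p = 0.00638) and Mir27a (−0.58, adjusted p = 0.0103). In it Mir16-2 was at 0.23 (adjusted p = 0.344), Mir16-1 at −0.16 (adjusted p = 0.365), Mirlet7a-2 at 0.57 (adjusted p = 0.0838) and Mir351 at −0.60 (adjusted p = 0.0828).

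Females and males were compared by the interaction of sex with genotype. Of 309 precursors 0 were called by edgeR, 25 had an unadjusted p under 0.05, and DESeq2 called 1. Mir592 (1.14), Mir200b (−0.99) and Mir142b (0.60) had the smallest adjusted p, 0.453 each, for the log2 difference of males minus females.

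The contrast of Q80 with the mean of Q92, Q111, Q140 and Q175 at 6 months used the same Q80 livers and no Q20 liver, so its values are given beside those above and not as separate evidence. It gave 9 calls of 309 (2.91%), 8 higher (2.59%) and 1 lower (0.324%). Mir181a-1, whose product acts in lymphocytes, led with 0.76 ± 0.11 (SE; adjusted p = 5.07e-06), and had 191.7 CPM in Q80 against 89.5 to 118.7 CPM in the other 4 alleles. Its level within Q80 differed by index type, at 112.8, 137.9 and 199.4 CPM in the 4 LB libraries and 189.9, 238.8 and 277.8 CPM in the 4 V libraries (lowest, median and highest). Mir16-2 was at 1.03 (adjusted p = 1.20e-05) and Mir16-1 at −0.34 (adjusted p = 0.000460). Mir16-2 means in the other expanded alleles were 1246.9 to 1604.8 CPM, against 3264.6 ± 1691.8 CPM in Q80. Mirlet7a-2 was at 0.49 (adjusted p = 0.00359), with means of 1023.6 to 1426.0 CPM in the other expanded alleles.

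Gm24111 and Mir351 were not called in that contrast, with log2 differences of 0.02 ± 0.10 (adjusted p = 0.920) and −0.09 ± 0.072 (adjusted p = 0.53; SE). Gm24111 had means of 1188.1 CPM in Q92, 733.2 in Q111, 847.5 in Q140 and 1020.4 in Q175, all above the 577.5 ± 83.6 CPM of Q20. Mir351 had means of 231.1 CPM in Q92, 338.5 in Q111, 316.1 in Q140 and 275.4 in Q175, all below the 394.5 ± 67.9 CPM of Q20. The levels followed no order of repeat length in either precursor, since Q92 held the extreme of both. Among LB libraries alone this contrast gave 1 call.

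The difference at 6 months was compared with the mean of the differences at 2 and 10 months, measured in other animals (8 per group, 7 for Q80 at 10 months). The livers of 6 months were those of the main comparison. A call at 6 months therefore favours a call in this contrast, and the 2 are not separate evidence. It gave 7 calls of 309 (2.27%), 4 higher (1.29%) and 3 lower (0.971%). Mir351 (−0.61 ± 0.094) and Gm24111 (0.68 ± 0.11) had an adjusted p of 4.81e-05 each, and Mirlet7a-2 (0.71 ± 0.17) one of 0.0153 (log2 scale, SE). Mir16-2 (0.96, adjusted p = 0.0221) and Mir125a (−0.64, adjusted p = 0.0422) also passed, with Mir451a (1.10, adjusted p = 0.0238) and Mir146 (−1.32, adjusted p = 0.0499). Mir451a and Mir146 were not called at 6 months (log2 changes 0.49 and −0.51, adjusted p = 0.180 and 0.285). At 2 months Mir146 had 965.0 ± 883.8 CPM in Q80, with a highest library of 3121.9 CPM, and 485.1 ± 179.3 CPM in Q20 (SD). At 10 months Mir451a had 697.7 ± 220.2 CPM in Q80 and 1401.9 ± 502.4 CPM in Q20 (SD).

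Between Q80 and Q20 at 2 months 1 precursor of 309 (0.324%) was called and at 10 months 1 (0.324%), in a fit over the 3 ages, and none of the 22 calls of 6 months was among them. Named after their values were seen, these were the unmatched identifier ENSMUST00000175336, higher in Q80 at 2 months, and Mir451a, an erythroid microRNA, lower in Q80 at 10 months (log2 change −1.01, adjusted p = 0.0377). Gm24111 was at 551.8 ± 51.8 CPM in Q80 and 528.8 ± 34 CPM in Q20 at 2 months, and at 530.1 ± 113.8 and 532.6 ± 92.8 CPM at 10 months (SD). Both Gm24111 differences were within the spread of a group. Mir351 was at 409.0 and 390.7 CPM at 2 months and at 298.6 and 302.0 CPM at 10 months. Index types differ between the 3 ages, some lane names recur at more than 1 age, and no label gives the sequencing run. Age and sequencing run thus cannot be told apart. Every Q80 and Q20 library of 2 and 10 months was LB, so index type could not be a term within those ages.

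**Figure D5:**
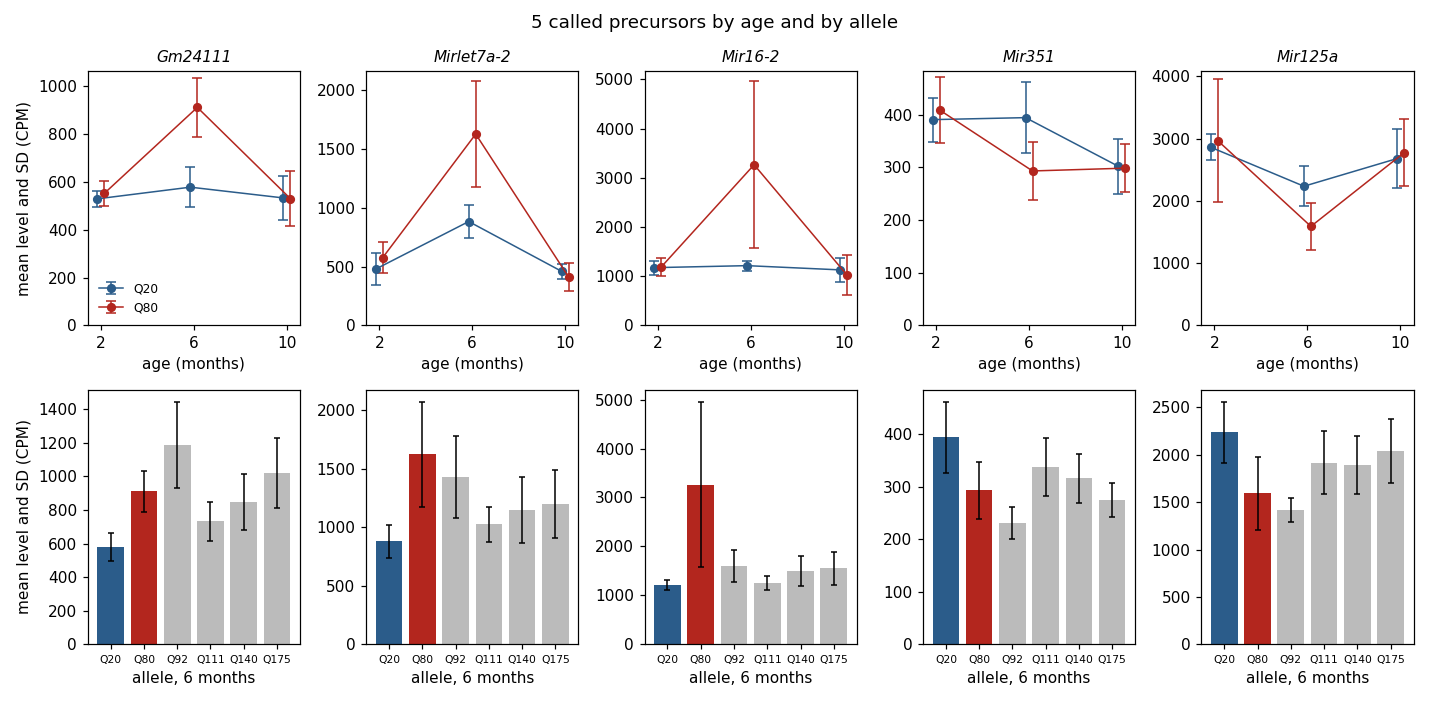
The upper row shows mean ± SD levels (CPM) of 5 called precursors at 2, 6 and 10 months in Q20 (blue) and Q80 (red), with 8 livers per point and 7 for Q80 at 10 months, and the lower row the 6 alleles at 6 months (bars from 0, mean ± SD, n = 8). The means of Q80 and Q20 are farthest apart at 6 months, the age at which all 5 were called. That choice favours a wider gap at 6 months. For Mir16-2 the Q80 bar is above those of the other expanded alleles.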

How the data were processed

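Liver RNA was sequenced by the authors as strand-specific single-end short reads, processed with CASAVA 1.8.2 per the labels, aligned to mm10 with STAR and counted with HTSeq. The deposited table holds estimated counts for 1626 precursors. In the 16 libraries 50.2% of values were whole, and the rule behind fractional values is not given in the sources used here. The design had assumed whole counts. Values were rounded for edgeR 4.0.16 in R 4.3.3 (quasi-likelihood, TMM factors). The test was tried on simulated data with 200 of 309 precursors changed. Of these, 58% were called at 1.5-fold and 86.5% at 2-fold, beside 3 and 19 calls among unchanged precursors. With no precursor changed, 0 were called. DESeq2 1.42.0 was the alternative. CPM divide estimated counts by all counts of a library. Precursors with 10 or more counts in at least 7 of the 48 knock-in libraries of 6 months were tested (309). Identifiers matched GENCODE (mm10) for 1228 precursors, and 28 tested ones were unmatched. The deposited FPKM were not used. Up to 12 calls per direction were named with values, 6 of each with library ranges, and any further call with its log2 change. Members and lists were chosen with earlier results of these data known. The alternatives with summed counts and with lane L3 alone were added after the data were seen. No libraries of a group agreed within sampling noise (lowest chi-square per degree of freedom 34.8). P-values measure the spread between these samples.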

Additional observations from a re-analysis of the deposited data

Results flagged for a closer look

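Mir3964 in Q20 F4, the single V library of that group, was far from its group at 2 CPM, while the other 7 Q20 livers had 0.25 to 0.953 CPM. Gm22002 in Q80 M1 was far from its group at 11.4 CPM, while the other 7 Q80 livers had 3.81 to 7.38 CPM. Chance alone gives such a gap in about 1 of 20 groups, and many groups were examined. The difference between Q80 and Q20 at 6 months departed from that at 2 and 10 months for 7 precursors of 309, by the test of the difference itself.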

How the results depend on the processing

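The 22 calls between Q80 and Q20 became 41 with DESeq2 (all 22 among them), 14 with libraries thinned to 3.37 M counts (13 shared), 8 with summed counts, 6 among LB libraries, 2 with lane L3 alone, and, both resting on 1 Q20 V library assumed to vary like the others, 1 with lane as batch and 0 among V libraries. RLE size factors gave 30 calls, 22 higher and 8 lower against 13 and 9, and moved the median log2 change from −0.0129 to 0.0177. No count filter gave 33 calls, sharing 9. Without the index type term there were 16 calls, sharing 11 of the 22, and Mir351 and Mir125a were among those lost. In Q20 that term rests on 1 V library. Leaving out 1 library gave 3 to 24 calls: 3 without Q20 M2, Q20 M3, Q80 F4 or Q80 M4, 5 without Q80 F1, 6 without Q80 F2, 8 without Q20 F1, F3, F4 or M1, and 11 without Q20 F2. The replicate block gave 2 calls, but correlations of −0.23 to 0.216 between same-numbered livers give no pairing. Mir339 reversed among V libraries (0.0565), with that single Q20 library. The sex test, with 0 calls, gave 1 with DESeq2, 9 without the filter and 0 to 3 leaving out 1 library (3 without Q80 M1). The index test, with 0, gave 2, 17 and 0 to 2 (2 without Q80 M4). The other-allele contrast, with 9, gave 16 with DESeq2, 16 without a batch term, 1 among LB libraries and 7 to 10 leaving out 1 library. The age contrast, with 7, gave 15 with DESeq2, 21 without the filter and 2 to 8 leaving out 1 library (2 without Q80 M4, 4 without Q80 F2). The cause of these shifts was not tested. Over the named calls and their alternatives other than summed counts, 288 values kept direction and call, 348 kept direction and lost the call, and 1 reversed. Every setting in this tally used libraries that gave the calls, so a kept direction was favoured in advance. Precision below 10 CPM is limited by depth, and Q80 was deeper mainly through its V libraries.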
